A study of Mus musculus with 12 samples.

Results

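The genes described here encode the machinery of homologous recombination and of Fanconi anaemia repair. They are the 31 genes of a list of symbols whose rule uses no measured value, but which was chosen with earlier results of these data known. All 31 were found among the 35013 genes of the deposited count table. Their mRNA was sequenced after poly-A selection in KP1 mouse cells, labelled LUAD, the usual abbreviation for lung adenocarcinoma. There were 4 groups of 3 libraries: NRF2 OE cells with romidepsin, Empty Vector (EV) cells with romidepsin, NRF2 OE cells with DMSO, and EV cells with DMSO. NRF2 OE cells (NRF2 cells below) overexpress NRF2, the transcription factor of the oxidative stress response, and Empty Vector cells carry the vector without it. Romidepsin, which inhibits histone deacetylases of class I, was given at 5 nM for 16 h, and DMSO is its solvent. All groups were plated at the same density in RPMI medium with serum. The labels name no promoter for NRF2 and do not say whether each line came from more than 1 transduction, so p-values measure the spread between the 3 cultures of each group, which the series design calls biological replicates.

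Homologous recombination repairs breaks that cut both DNA strands by copying an intact sister. The MRN complex and its partners find and trim the broken end, and BRCA1, PALB2 and BRCA2 then prepare the exposed strand to pair with the sister. The Fanconi pathway unhooks crosslinks that tie the strands together: a core complex attaches ubiquitin to FANCD2 and FANCI, and the gap that is left is then closed by recombination. Many of these genes are transcribed mainly in dividing cells, around S phase.

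The libraries held 16842824 to 28003010 estimated counts, and all 31 genes passed the filter on low counts that left 13502 genes for testing. The fewest counts of a listed gene in any library were 34, for Fancl. Levels are in CPM, a gene's count relative to the TMM-scaled total of its library. Nfe2l2, which encodes NRF2, had 339, 343 and 365 CPM in NRF2 cells with romidepsin, against 93.3, 99.0 and 96.7 CPM in EV cells with romidepsin. With DMSO it had 281, 282 and 352 CPM in NRF2 cells, against 101, 101 and 103 CPM in EV cells, so that the lines did not overlap. Replicate 3 of NRF2 cells with DMSO stood apart: its chi-square per degree of freedom against the other 2 libraries of its group was 34.1 and 42.7, against 2.34 to 8.995 for all other replicate pairs, and mitochondrial genes took 7.30% of its counts, against 4.84 to 6.35% elsewhere. Of the 10 epithelial markers, Krt7, Krt8, Krt18, Krt19 and Cdh1 were high. The list summed to 9416 to 9914 CPM in NRF2 cells with romidepsin, 6357 to 6503 CPM in EV cells with romidepsin, 5476 to 6187 CPM in NRF2 cells with DMSO and 3748 to 3785 CPM in EV cells with DMSO. The keratins made up most of these sums, and each averaged higher with romidepsin in both lines. Cdh1 averaged 227 CPM with romidepsin and 417 CPM with DMSO in NRF2 cells, and 246 CPM with romidepsin and 353 CPM with DMSO in EV cells. Epcam, a defining epithelial marker, averaged 7.24 and 3.59 CPM in romidepsin-treated NRF2 and EV cells and was below 1 CPM with DMSO. The lung markers Nkx2-1, Sftpc, Sftpb and Cldn18 were below 1 CPM on average in every group. Markers of fibroblasts and endothelium summed to at most 18.1 and 10.1 CPM in any library. The 5 immune markers summed to 69.8 to 74.0 and 49.8 to 55.1 CPM in romidepsin-treated NRF2 and EV cells, against at most 4.82 CPM with DMSO, of which Cd68 made up nearly all, while Ptprc, Adgre1 and Cd3e stayed below 1 CPM.

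The 31 repair genes together took a smaller part of the transcriptome under romidepsin, and the smallest in NRF2 cells. Their summed level was 502 ± 5.85 CPM with romidepsin and 921 ± 19.2 CPM with DMSO in NRF2 cells (SD, n = 3 each). In EV cells it was 650 ± 6.99 CPM with romidepsin and 977 ± 6.60 CPM with DMSO. Per kilobase of merged exon, the highest levels in EV cells with DMSO were those of Rad50 with 15.9 CPM per kb, Rad51d with 13.1 and Fance with 10.3, and the lowest were Palb2 with 1.52, Rad51c with 1.41 and Rad51b with 1.32. The order had changed in NRF2 cells with romidepsin: there Chek2 had 9.26, Fance 8.97 and Rad51d 5.96 CPM per kb, and Palb2 with 0.634, Fancl with 0.570 and Fancc with 0.495 stood at the bottom. These are levels over all annotated exons, so neighbours in the order are not told apart by them.

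**Figure D1:**
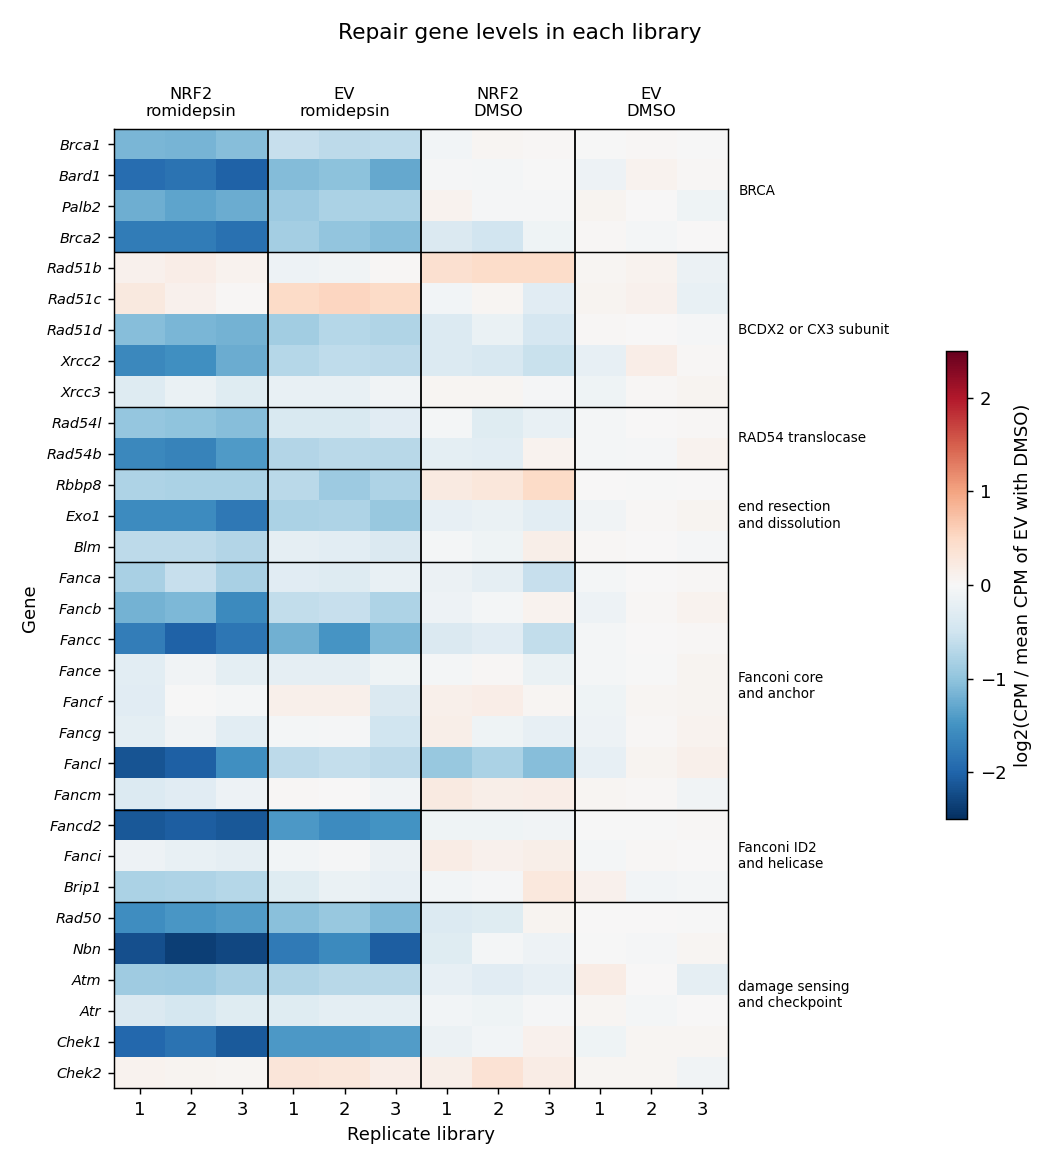
Level of each of the 31 repair genes (rows, grouped by role) in each of the 12 libraries (columns), as the log2 ratio of CPM to the gene's mean in EV cells with DMSO. Blue is lower and red is higher. Most rows are bluest in NRF2 cells with romidepsin, with Nbn at 4.54 to 5.10 CPM there against 22.7 to 24.1 CPM in EV cells with DMSO. Rad51b, Rad51c, Fancf and Chek2 stay near white or red. Other rows are only pale blue there, such as Fance, Fancg, Fanci and Xrcc3, with Fance averaging 28.6 CPM against 32.8 CPM.

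The first question was what romidepsin did to these genes in each line. In NRF2 cells 27 of the 31 genes fell, none rose, and 4 were not called, where 39.3% of all genes tested were called lower and 40.5% higher. At an unadjusted p under 0.05 the number higher in NRF2 cells was also 0, as it was with DESeq2 and limma-voom. In EV cells 23 genes fell, 2 rose and 6 were not called, where 37.4% of all genes were called lower and 39.1% higher. A gene counts as called at an adjusted p under 0.05 in edgeR's quasi-likelihood test with Benjamini-Hochberg adjustment over all 13502 genes. The median log2 change was -0.83 in NRF2 cells and -0.64 in EV cells, where the median of all genes was 0.01 in each line. Falls of at least 2-fold were called for 14 genes in NRF2 cells and 6 in EV cells, with 12.6% and 8.82% of all genes in that class. Romidepsin libraries lay below all DMSO libraries for 27 genes in NRF2 cells and 23 in EV cells, against 39% and 39.9% of all genes, and above them for 0 and 2, against 40.8% and 41.1%. These 27 in NRF2 cells include Fancf, which was not called, and leave out Fanca, which was. In total 22 genes fell in both lines, as did 4665 of all 13502 genes. The lines share no library in these comparisons, and over the 31 genes the log2 changes in the lines had r = 0.94, given as a description of genes that share libraries within each line. In bulk RNA, fewer cells of a type and less RNA per cell cannot be told apart.

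Genes of the cell cycle moved in the same libraries. Of 30 listed S-phase and G2-M genes, 29 fell with romidepsin in NRF2 cells and 29 in EV cells, with median log2 changes of -1.64 and -1.13. Of all genes, 39.3% were called lower in NRF2 cells and 37.4% in EV cells, with a median of 0.01 in each line. The summed level of the 30 genes was 2027 ± 35.9 CPM with romidepsin and 6134 ± 123 CPM with DMSO in NRF2 cells (SD, n = 3 each). In EV cells it was 2971 ± 92.6 CPM with romidepsin and 6176 ± 224 CPM with DMSO. Rrm2, the regulatory subunit of ribonucleotide reductase, had 48.9 ± 3.43 CPM in NRF2 cells with romidepsin and 292 ± 2.95 CPM in NRF2 cells with DMSO. The part of these genes in the changes of the repair genes was not tested.

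Among the damage sensors, the MRN subunit Nbn (chr4:15957925-15992589, GRCm38, plus strand) fell the most of all 31 genes in both lines. MRN binds broken ends and recruits ATM, and NBN is the subunit that contacts the kinase. Nbn had 5.10, 4.54 and 4.79 CPM in NRF2 cells with romidepsin, against 19.0, 22.4 and 21.3 CPM in NRF2 cells with DMSO. In EV cells it had 6.88, 7.75 and 5.57 CPM with romidepsin, against 23.1, 22.7 and 24.1 CPM with DMSO. No romidepsin library came near the DMSO libraries of either line. The fall was 4.36-fold in NRF2 cells (log2 -2.12 ± 0.11, SE; adjusted p = 4.9e-12) and 3.46-fold in EV cells (log2 -1.79 ± 0.10; adjusted p = 3.9e-11). Rad50, the long arm of the same complex, had 29.3, 31.04 and 32.3 CPM in NRF2 cells with romidepsin, against 67.5, 69.8 and 89.4 CPM in NRF2 cells with DMSO. In EV cells Rad50 had 41.5, 44.5 and 40.1 CPM with romidepsin, against 85.8, 86.1 and 84.7 CPM with DMSO. Here too the treatments did not overlap, and Rad50 fell by 1.29 ± 0.09 and 1.02 ± 0.08 on the log2 scale in NRF2 and EV cells.

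The kinases downstream were affected unequally. Chek1 (chr9:36708482-36727065, minus strand), the checkpoint kinase that ATR activates during replication stress, had 7.62, 8.23 and 6.90 CPM in NRF2 cells with romidepsin, against 26.8, 28.2 and 31.7 CPM in NRF2 cells with DMSO. In EV cells Chek1 had 10.95, 11 and 11.28 CPM with romidepsin, against 27.4, 30.7 and 30.6 CPM with DMSO. Both lines were separated by treatment, and Chek1 fell 3.78-fold in NRF2 cells (adjusted p = 9.4e-13) and 2.67-fold in EV cells (adjusted p = 5e-11). Atm, the kinase that responds to broken ends, fell by 0.64 ± 0.08 (log2) in NRF2 cells and by 0.71 ± 0.08 in EV cells. Atr, which responds to exposed stretches of unpaired DNA, fell by 0.30 ± 0.05 in NRF2 cells and by 0.27 ± 0.05 in EV cells. Chek2, the kinase that ATM activates, was the exception. It had 28.2, 27.7 and 27.5 CPM in NRF2 cells with romidepsin, against 29.3, 34.3 and 30.2 CPM in NRF2 cells with DMSO. In EV cells Chek2 had 32.6, 32.1 and 29.9 CPM with romidepsin, against 27.3, 27.3 and 25.0 CPM with DMSO. The treatments did not overlap in either line but lay in opposite order: Chek2 rose by 0.25 ± 0.07 (log2, adjusted p = 0.0026) in EV cells and fell by 0.17 ± 0.07 (adjusted p = 0.024) in NRF2 cells. The fall in NRF2 cells is small and lost its call in 8 of 21 alternatives, with an adjusted p of up to 0.65 when libraries were scaled by size alone.

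End resection makes the overhang from which recombination starts. Rbbp8, which encodes CtIP, the partner of MRN that starts resection, had 26.7, 26.5 and 26.4 CPM in NRF2 cells with romidepsin, against 53.7, 55.5 and 63.9 CPM in NRF2 cells with DMSO. In EV cells Rbbp8 had 28.9, 24.3 and 27.1 CPM with romidepsin, against 46.1, 45.6 and 45.9 CPM with DMSO. The treated libraries of the lines lay at the same level, from different levels with DMSO, and the fall was 2.17-fold in NRF2 cells and 1.72-fold in EV cells (adjusted p = 6.6e-11 and 1.5e-08). Exo1, the exonuclease that extends resection, had 15.6, 15.6 and 13.5 CPM in NRF2 cells with romidepsin, against 40.2, 41.4 and 38.5 CPM in NRF2 cells with DMSO. Exo1 had 26.8, 27.2 and 24.0 CPM in EV cells with romidepsin, against 43.7, 47.3 and 48.5 CPM in EV cells with DMSO. It fell by 1.42 ± 0.07 (log2) in NRF2 cells and by 0.84 ± 0.07 in EV cells, without overlap. Blm, the helicase that works in resection and in undoing joined recombination intermediates, fell by 0.67 ± 0.07 in NRF2 cells and by 0.27 ± 0.07 in EV cells.

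All 4 genes of the BRCA group fell in both lines, where 39.3% of all genes were called lower in NRF2 cells and 37.4% in EV cells. Bard1 (chr1:71027498-71103146, minus strand), the obligate partner of BRCA1 in its ubiquitin ligase, had 8.37, 8.65 and 7.64 CPM in NRF2 cells with romidepsin, against 30.4, 30.0 and 30.9 CPM in NRF2 cells with DMSO. In EV cells Bard1 had 14.7, 15.2 and 12.8 CPM with romidepsin, against 28.5, 33.1 and 31.8 CPM with DMSO. The lines overlapped with DMSO and were separate with romidepsin, where every NRF2 library was below every EV library. Bard1 fell 3.68-fold in NRF2 cells and 2.18-fold in EV cells (adjusted p = 7.8e-13 and 5.7e-10). Brca1 had 32.3, 32.1 and 34.3 CPM in NRF2 cells with romidepsin, against 67.7, 74.1 and 73.1 CPM in NRF2 cells with DMSO. In EV cells Brca1 had 47.8, 45.6 and 45.8 CPM with romidepsin, against 70.6, 72.8 and 70.8 CPM with DMSO. The same arrangement is seen as for Bard1, and Brca1 fell by 1.13 ± 0.05 (log2) in NRF2 cells and by 0.62 ± 0.05 in EV cells. Brca2, which PALB2 brings to the break, had 12.02, 12.06 and 11.07 CPM in NRF2 cells with romidepsin, against 31.5, 29.2 and 37.8 CPM in NRF2 cells with DMSO. In EV cells Brca2 had 22.4, 20.5 and 19.5 CPM with romidepsin, against 41.5, 39.2 and 41.0 CPM with DMSO. Brca2 was thus lowest in the treated NRF2 libraries, and it fell by 1.47 ± 0.09 and 0.97 ± 0.08 on the log2 scale in NRF2 and EV cells. Palb2, the bridge between BRCA1 and BRCA2, averaged 4.66 ± 0.167 CPM in NRF2 cells with romidepsin and 11.3 ± 0.555 CPM in NRF2 cells with DMSO, and 6.30 ± 0.310 CPM in EV cells with romidepsin and 11.2 ± 0.704 CPM in EV cells with DMSO (SD, n = 3 each).

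**Figure D2:**
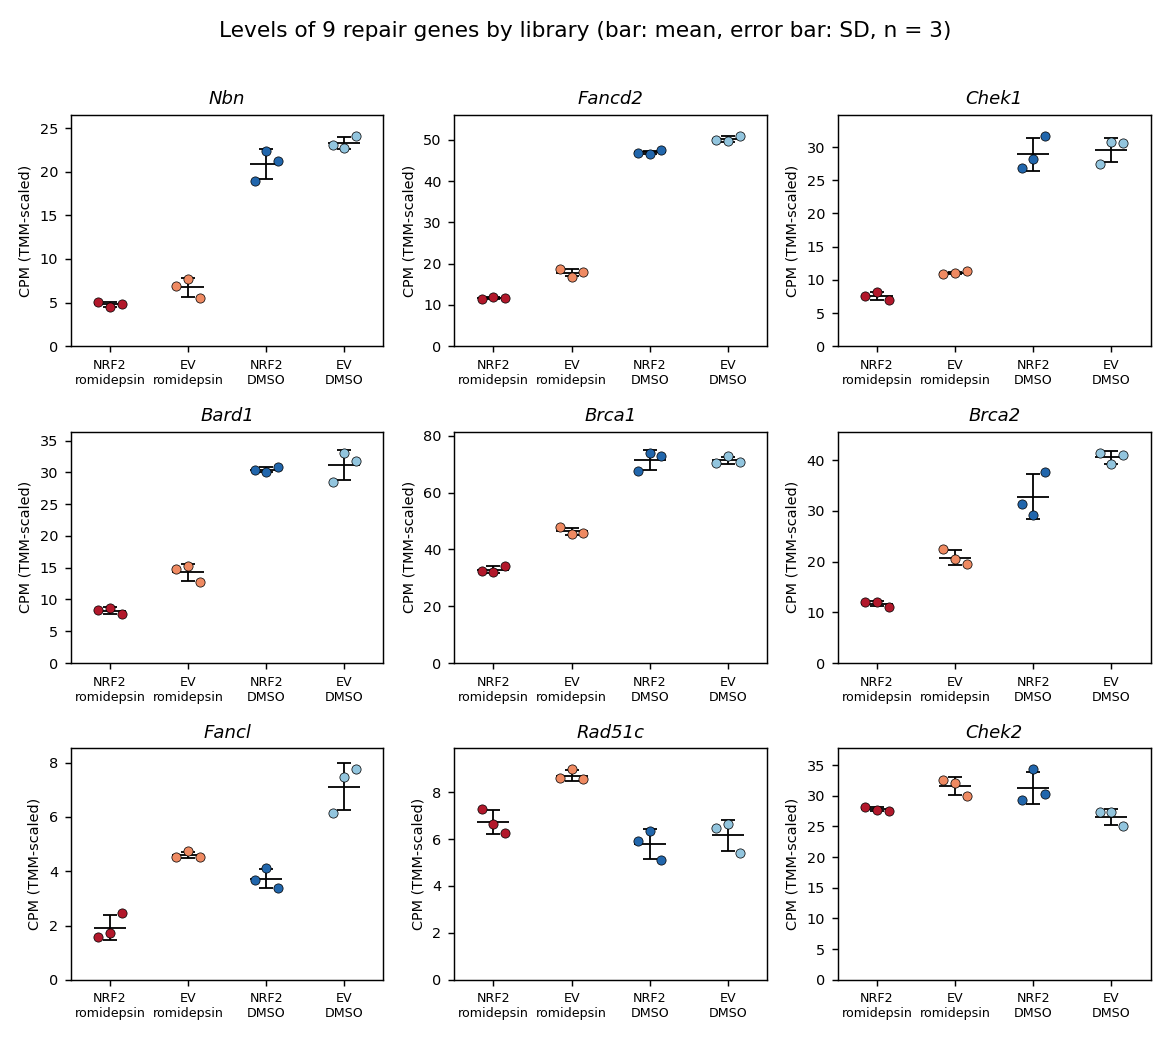
CPM (y axis, TMM-scaled, from 0) of 9 repair genes in each library, with points for libraries and bars for the mean ± SD of 3. Nbn, Fancd2, Chek1, Bard1, Brca1, Brca2 and Fancl are lowest in NRF2 cells with romidepsin, Rad51c is highest in EV cells with romidepsin at 8.54 to 8.97 CPM, and Chek2 lies between 25.0 and 34.3 CPM throughout.

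The subunits of the BCDX2 and CX3 complexes, which act before strand invasion and after it, did not move as a block. Rad51d and Xrcc2 fell in both lines, by 0.83 ± 0.07 and 1.04 ± 0.12 (log2) in NRF2 cells and by 0.78 ± 0.07 and 0.67 ± 0.11 in EV cells. Rad51c (chr11:87376645-87404954, minus strand), which sits in both complexes, had the largest rise of the 31 genes. It had 7.29, 6.64 and 6.27 CPM in NRF2 cells with romidepsin, against 5.90, 6.36 and 5.09 CPM in NRF2 cells with DMSO. In EV cells Rad51c had 8.60, 8.97 and 8.54 CPM with romidepsin, against 6.46, 6.63 and 5.40 CPM with DMSO. The EV treatments did not overlap and those of NRF2 cells did. The rise in EV cells was 1.42-fold (log2 0.51 ± 0.11; adjusted p = 0.00051), and the difference in NRF2 cells was 0.21 ± 0.11 (adjusted p = 0.1), which was called with upper-quartile and library-size scaling (adjusted p = 0.017 and 0.01). Rad51b had 5.33, 5.56 and 5.25 CPM in NRF2 cells with romidepsin, against 6.59, 6.85 and 6.79 CPM in NRF2 cells with DMSO, and fell by 0.32 ± 0.10 (log2). In EV cells it had 4.52, 4.64 and 5.05 CPM with romidepsin, against 5.13, 5.27 and 4.47 CPM with DMSO, which overlap. Xrcc3, the partner of RAD51C in the smaller complex, fell by 0.28 ± 0.08 in NRF2 cells, and in EV cells its difference was -0.15 ± 0.08 (adjusted p = 0.096). The falls of Rad51b and Xrcc3 in NRF2 cells lost their calls with upper-quartile and library-size scaling, which place the median of all genes at 0.12 to 0.15, and that of Rad51b also with DESeq2 (adjusted p = 0.06).

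The RAD54 translocases, motor proteins of the strand invasion step, fell in both lines. Rad54b averaged 7.77 ± 0.745 CPM in NRF2 cells with romidepsin and 21.0 ± 2.90 CPM in NRF2 cells with DMSO, and 14.1 ± 0.289 CPM in EV cells with romidepsin and 22.9 ± 1.123 CPM in EV cells with DMSO. Rad54l averaged 15.4 ± 0.564 CPM in NRF2 cells with romidepsin and 27.5 ± 2.29 CPM in NRF2 cells with DMSO, and 24.4 ± 0.954 CPM in EV cells with romidepsin and 31.1 ± 0.782 CPM in EV cells with DMSO. Both were lowest in treated NRF2 cells. Of the merged exons of Rad54b, 35.8% are also exons of Fsbp on the same strand, so its estimated counts depend on how reads were divided between them.

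Of the 8 genes of the Fanconi core complex and its anchor, 5 were called lower in each line, though not all the same. Of all genes, 39.3% were called lower in NRF2 cells and 37.4% in EV cells. Fancc, a substrate-binding subunit of the core, had 4.49, 3.66 and 4.28 CPM in NRF2 cells with romidepsin, against 11.6, 12.2 and 9.70 CPM in NRF2 cells with DMSO. In EV cells Fancc had 6.43, 5.36 and 6.94 CPM with romidepsin, against 14.5, 15.04 and 15.1 CPM with DMSO. It fell by 1.45 ± 0.12 (log2) in NRF2 cells and by 1.25 ± 0.11 in EV cells, without overlap of treatments. Fancb, the scaffold that holds the ligase subunit, had 8.84, 9.21 and 6.62 CPM in NRF2 cells with romidepsin, against 18.2, 19.3 and 21.2 CPM in NRF2 cells with DMSO. In EV cells Fancb had 13.1, 13.3 and 11.6 CPM with romidepsin, against 18.4, 20.3 and 21.2 CPM with DMSO. It fell by 1.23 ± 0.11 and 0.65 ± 0.11 in NRF2 and EV cells. Fancl, the ubiquitin ligase subunit itself, had 1.59, 1.72 and 2.45 CPM in NRF2 cells with romidepsin, against 3.69, 4.11 and 3.39 CPM in NRF2 cells with DMSO. In EV cells Fancl had 4.52, 4.73 and 4.53 CPM with romidepsin, against 6.14, 7.46 and 7.75 CPM with DMSO. The untreated NRF2 libraries were already below the treated EV libraries, and Fancl fell by 0.99 ± 0.17 in NRF2 cells and by 0.64 ± 0.14 in EV cells. Fanca, which recruits the core with FANCG, fell by 0.42 ± 0.09 in NRF2 cells and by 0.27 ± 0.09 in EV cells. The treatments of Fanca overlapped in NRF2 cells, with 42.8, 50.3 and 42.8 CPM with romidepsin, against 67.3, 64.3 and 49.9 CPM with DMSO. Fancm, the translocase that anchors the core on DNA, had 18.4, 19.1 and 21.5 CPM in NRF2 cells with romidepsin, against 27.2, 25.7 and 26 CPM in NRF2 cells with DMSO. In EV cells Fancm had 23.9, 23.5 and 22.0 CPM with romidepsin, against 24.1, 23.8 and 22.1 CPM with DMSO. It fell by 0.42 ± 0.07 (adjusted p = 2.9e-05) in NRF2 cells, and in EV cells its difference was -0.01 with a 95% interval of -0.17 to 0.15. For the adaptor subunits Fancf and Fancg no difference was called in either line, with 95% intervals of -0.54 to 0.07 and -0.44 to 0.15 in NRF2 cells and -0.32 to 0.29 and -0.48 to 0.11 in EV cells. Fance, which bridges the core to FANCD2, differed by -0.14 ± 0.07 (adjusted p = 0.067) in NRF2 cells and fell by 0.18 ± 0.07 (adjusted p = 0.023) in EV cells, a call lost in 7 of 21 alternatives. The call of Fanca in EV cells was lost in 4, with adjusted p up to 0.15 with library-size scaling.

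Exons on the opposite strand overlap several of these genes: 16.4% of Fancc (Gm16133), 15% of Fancf (Gas2), 13.7% of Fancl (Vrk2) and 10.5% of Fanca (Zfp276) in the GENCODE M21 annotation, as well as 16.0% of Fanci (Polg) and 15.4% of Rad54l (Lrrc41). The sources used here do not say whether counting used the strand, so reads of such pairs may not be told apart.

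Fancd2, the substrate of the core complex, fell more in both lines than its partner Fanci. Fancd2 (chr6:113531682-113597017, plus strand) had 11.6, 11.99 and 11.6 CPM in NRF2 cells with romidepsin, against 46.9, 46.7 and 47.5 CPM in NRF2 cells with DMSO. In EV cells Fancd2 had 18.6, 16.9 and 17.9 CPM with romidepsin, against 50.1, 49.7 and 51.0 CPM with DMSO. Replicates lay close together and the treatments far apart: Fancd2 fell 4-fold in NRF2 cells (log2 -2 ± 0.06; adjusted p = 2.4e-15) and 2.82-fold in EV cells (log2 -1.5 ± 0.05; adjusted p = 7.8e-14). Fanci had 23.7, 22.6 and 22.0 CPM in NRF2 cells with romidepsin, against 29.4, 27.9 and 28.6 CPM in NRF2 cells with DMSO. In EV cells Fanci had 24.6, 25.3 and 23.5 CPM with romidepsin, against 24.9, 26.5 and 26.2 CPM with DMSO. It fell by 0.33 ± 0.06 in NRF2 cells, and its difference in EV cells was -0.08 ± 0.06 (adjusted p = 0.23), where the treatments overlapped. Brip1, the helicase that binds BRCA1 and is also a Fanconi gene, had 15.2, 15.5 and 16.1 CPM in NRF2 cells with romidepsin, against 25.2, 25.9 and 31.8 CPM in NRF2 cells with DMSO. In EV cells Brip1 had 21.4, 23.4 and 22.8 CPM with romidepsin, against 28.3, 25.2 and 25.4 CPM with DMSO. It fell by 0.82 ± 0.09 in NRF2 cells and by 0.22 ± 0.08 (adjusted p = 0.024) in EV cells, the second of which was lost in 5 alternatives with adjusted p of up to 0.29.

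Promoter sequences, 250 bases before to 50 after the start of transcription, were available from RefSeq (GRCm38.p6) for 23 of the 31 genes, and not for Nbn, Fancd2, Rad50, Exo1, Rad54b, Rbbp8, Xrcc2 and Rad51d. Among the 23, the genes with the largest average fall (Chek1 and Bard1) and the largest rise (Rad51c, with both of its start sites) are shown. Nbn and Fancd2 fell further than these. They are written 5′ to 3′ in the direction of transcription, and capitals mark a match to one of the motifs searched on both strands: E2F (TTTCGCGC, TTTGGCGC, TTTCCCGC or TTTGCCGC), the cell-cycle element CHR (TTTGAA), NF-Y (CCAAT) and the antioxidant response element of NRF2 (TGACNNNGC).
Chek1 (chr9:36726609-36726908, minus strand): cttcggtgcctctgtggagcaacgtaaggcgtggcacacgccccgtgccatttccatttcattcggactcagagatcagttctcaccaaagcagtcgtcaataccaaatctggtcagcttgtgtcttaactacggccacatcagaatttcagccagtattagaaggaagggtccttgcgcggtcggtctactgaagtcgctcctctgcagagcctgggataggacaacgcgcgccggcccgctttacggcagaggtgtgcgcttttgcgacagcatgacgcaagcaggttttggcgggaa
Bard1 (chr1:71102923-71103222, minus strand): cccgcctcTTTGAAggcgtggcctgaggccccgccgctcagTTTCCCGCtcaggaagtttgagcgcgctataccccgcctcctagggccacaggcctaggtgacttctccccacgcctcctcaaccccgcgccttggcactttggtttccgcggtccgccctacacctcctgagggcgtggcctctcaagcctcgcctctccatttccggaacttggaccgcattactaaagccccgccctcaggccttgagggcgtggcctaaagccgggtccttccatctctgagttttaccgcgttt
Rad51c downstream start (chr11:87404457-87404756, minus strand): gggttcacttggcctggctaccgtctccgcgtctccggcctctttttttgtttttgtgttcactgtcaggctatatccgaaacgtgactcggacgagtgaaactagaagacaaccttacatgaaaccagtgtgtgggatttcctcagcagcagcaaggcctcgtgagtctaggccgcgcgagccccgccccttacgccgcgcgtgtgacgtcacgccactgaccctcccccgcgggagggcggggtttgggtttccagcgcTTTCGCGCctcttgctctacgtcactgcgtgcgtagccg
Rad51c upstream start (chr11:87404905-87405204, minus strand): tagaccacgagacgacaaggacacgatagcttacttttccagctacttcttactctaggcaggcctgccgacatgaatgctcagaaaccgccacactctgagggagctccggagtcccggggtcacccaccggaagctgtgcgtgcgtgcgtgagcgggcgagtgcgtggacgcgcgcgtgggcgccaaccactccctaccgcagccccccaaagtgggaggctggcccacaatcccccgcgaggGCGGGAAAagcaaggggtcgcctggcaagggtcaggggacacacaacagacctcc

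In these windows Chek1 held no exact match to a word of the 4 motifs. Bard1 held an E2F word and a CHR, and each start of Rad51c held an E2F word. The Chek1 window ends in gcgggaa, where the E2F word GCGGGAAA (TTTCCCGC on the other strand) would be cut by its last base. An absence is thus one of these exact words within the window. An E2F word was found at 1 start or more in 5 of the 23 genes (21.7%; Bard1, Brca2, Chek2, Fancg and Rad51c) and in 2.6% of all 27025 genes of the promoter table. The NF-Y word was in 15 of 23 (65.2%) and in 41.1% of all genes, the CHR in 2 of 23 (8.7%; Bard1 and Rad51b) and in 20.2% of all. The NRF2 element was in 4 of 23 (17.4%; Brca2, Fancf, Fancl and Rad54l) and in 14% of all. The genes with an E2F word include the only ones of the 31 called higher with romidepsin in EV cells, Rad51c and Chek2. In NRF2 cells Chek2 was called lower and Rad51c was not called. Bard1 and Brca2 fell in both lines, and Fancg was called in neither. The RefSeq starts of Chek1 and Bard1 and the downstream start of Rad51c lie inside these genes as GENCODE M21 draws them. A match is a description of letters and shows no binding.

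The second question was whether romidepsin acted differently in NRF2 cells, tested as the romidepsin effect in NRF2 cells minus that in EV cells. For 15 of the 31 genes the effect was called lower in NRF2 cells and for none higher, where 10.2% of all genes tested were called lower and 5.53% higher. The number higher was 0 too at an unadjusted p under 0.05, with DESeq2 and with limma-voom. The median difference was -0.36 (log2), against -0.02 over all genes. By the estimate alone 28 of the 31 genes had the lower value in NRF2 cells, as had 7180 of all 13502 genes. Of the 22 genes that fell in both lines, 13 fell further in NRF2 cells by this test, as did 942 of the 4665 such genes in the whole table. Among S-phase and G2-M genes 27 of 30 were called lower, with a median of -0.52, and their part in the result was not tested. This difference uses the same libraries as the romidepsin effects above.

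All 4 genes of the BRCA group were called, with Bard1 at -0.75 (95% interval -1.02 to -0.49; adjusted p = 3e-04), Brca2 at -0.51 (-0.79 to -0.23; adjusted p = 0.0089), Brca1 at -0.50 (-0.67 to -0.34; adjusted p = 0.00013) and Palb2 at -0.45 (-0.76 to -0.14; adjusted p = 0.029). Both RAD54 genes were called, Rad54b at -0.73 and Rad54l at -0.48, and so were the 3 genes of resection and dissolution, Exo1 at -0.58, Blm at -0.40 and Rbbp8 at -0.34. None of the 5 genes of the BCDX2 and CX3 complexes was called, and their estimates ran from -0.37 for Xrcc2 (95% interval -0.74 to -0.01) to -0.05 for Rad51d (-0.28 to 0.17). Of all genes tested, 10.2% were called lower by this test, so none called among 5 lies near that share. Whether the role groups differ from each other was not tested. In the Fanconi pathway Brip1 at -0.60, Fancb at -0.58, Fancd2 at -0.50 and Fancm at -0.41 were called, and Fanci at -0.25 had an adjusted p of 0.057. Of the sensors and kinases Chek1 at -0.50 and Chek2 at -0.43 were called. Nbn, which fell the most in both lines, differed by -0.33 with a 95% interval of -0.68 to 0.02, and Atm and Atr by 0.06 (-0.20 to 0.32) and -0.04 (-0.21 to 0.13). The calls of Palb2 and Rbbp8 were lost in 7 and 6 of 20 alternatives, with adjusted p up to 0.076 and 0.088, and that of Fancb without replicate 2 of EV cells with romidepsin (adjusted p = 0.051). Without replicate 3 of NRF2 cells with DMSO 18 genes were called lower, Xrcc2, Fanca and Fanci in addition, while the share of all genes called lower was 15.5% in place of 10.2%.

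**Figure D3:**
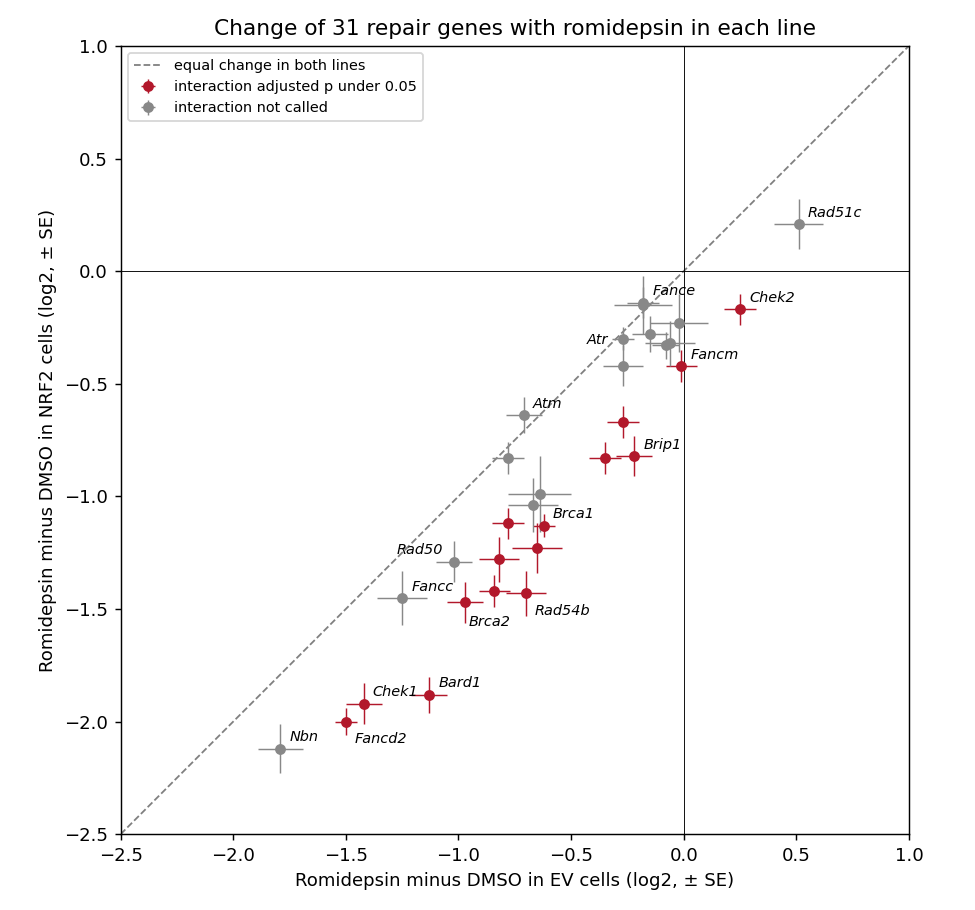
Log2 change with romidepsin in EV cells (x axis) and NRF2 cells (y axis) for the 31 repair genes, with bars for ± SE. Points under the dashed line of equal change fell further, or rose less, in NRF2 cells. There are 28 of them, and the 15 in red passed the test of the difference, among them Bard1 at -1.13 and -1.88.

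**Figure D4:**
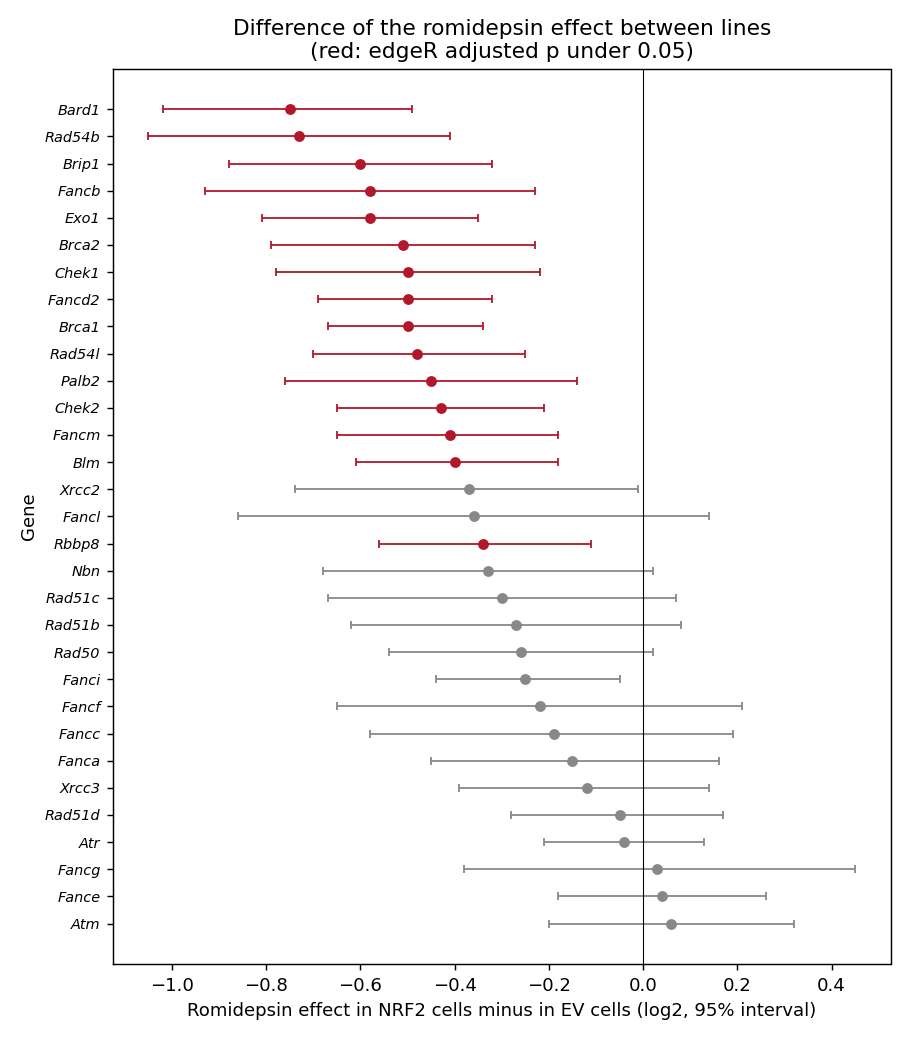
Romidepsin effect in NRF2 cells minus that in EV cells for each of the 31 repair genes (log2, points with 95% intervals), ordered by size. Red marks the 15 genes with an edgeR adjusted p under 0.05, from Bard1 at -0.75 to Rbbp8 at -0.34, and estimates above 0 are seen for Fancg, Fance and Atm.

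The third question was what NRF2 overexpression did without the drug. With DMSO, 9 of the 31 genes were lower in NRF2 than in EV cells, 3 were higher and 19 were not called, where 16.9% of all genes were called lower and 19.3% higher. The median log2 difference was -0.05, against -0.01 over all genes, and no gene fell 2-fold, as did 2.38% of all genes. NRF2 libraries lay below all EV libraries for 10 genes and above for 5, against 20.7% and 21.8% of all genes. The largest difference was that of Fancl, at 3.69, 4.11 and 3.39 CPM in NRF2 cells, against 6.14, 7.46 and 7.75 CPM in EV cells. Fancl was 1.90-fold lower (log2 -0.92 ± 0.14; adjusted p = 5.9e-05), and its lines did not overlap. Xrcc2 fell by 0.42 ± 0.11 (log2), Fancc by 0.41 ± 0.11, Brca2 by 0.31 ± 0.08, Rad51d by 0.30 ± 0.06, Fanca by 0.30 ± 0.09, Atm by 0.22 ± 0.08, Exo1 by 0.21 ± 0.07 and Rad54l by 0.18 ± 0.07. Rad51b, Rbbp8 and Chek2 rose by 0.45 ± 0.11, 0.33 ± 0.07 and 0.24 ± 0.07. Of the S-phase and G2-M genes 5 were lower and 4 higher.

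Several of these calls rest on few libraries. Rad54l (adjusted p = 0.045) lost its call in 15 of 21 alternatives, and Atm, with 39.4, 37.5 and 39.8 CPM in NRF2 cells, against 51.9, 45.5 and 39.1 CPM in EV cells, in 7, among them the fit without replicate 1 of EV cells (adjusted p = 0.21). Without replicate 2 of EV cells with DMSO 5 genes were called lower, where 13.8% of all genes were. Without replicate 3 of NRF2 cells, the library that stands apart, 11 were, where 19.8% of all genes were, as Rad50 (-0.31; adjusted p = 3.5e-06) and Rad54b (-0.25; adjusted p = 0.009) were added. In that library Rad50 had 89.4 CPM, against 67.5 and 69.8 CPM in the others of its group.

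The last comparison sets the lines side by side under romidepsin and shares its libraries with the comparisons above. Of the 31 genes 22 were lower in NRF2 than in EV cells and none was higher, where 22.4% of all genes were called lower and 23% higher. Again 0 genes were higher at an unadjusted p under 0.05, with DESeq2 or with limma-voom. The median log2 difference was -0.44, against 0 over all genes. NRF2 libraries lay below all EV libraries for 24 genes and above for 1, Rad51b, against 30.4% and 30.8% of all genes. Fancl was 2.43-fold lower (log2 -1.28 ± 0.16; adjusted p = 6.8e-06), the only gene past 2-fold, as were 1.47% of all genes. Next came Rad54b at -0.87 ± 0.10 (log2), Brca2 at -0.82 ± 0.09, Exo1 at -0.80 ± 0.07, Xrcc2 at -0.80 ± 0.12 and Bard1 at -0.79 ± 0.09. Rad51c, raised by romidepsin in EV cells, was 1.29-fold lower in NRF2 cells (log2 -0.37 ± 0.11; adjusted p = 0.011). Rbbp8, with 26.5 ± 0.173 CPM in NRF2 cells and 26.7 ± 2.31 CPM in EV cells, differed by -0.01 (95% interval -0.18 to 0.16), and Fance and Fancg by -0.01 each (-0.17 to 0.14 and -0.31 to 0.28). The S-phase and G2-M genes were lower in 29 of 30 cases, with a median of -0.54. In total 8 of the repair genes were lower in NRF2 cells under each treatment, Brca2, Rad51d, Xrcc2, Rad54l, Exo1, Fanca, Fancc and Fancl, as were 1366 of all genes. The call of Chek2 (-0.18; adjusted p = 0.035) was lost in 5 alternatives and that of Fancm (-0.24; adjusted p = 0.011) without replicate 2 of treated NRF2 cells (adjusted p = 0.051).

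A further 48 recombination and Fanconi genes outside the 31 were measured in the same fit. With romidepsin 38 fell and 4 rose in NRF2 cells, and 35 fell and 6 rose in EV cells, with median log2 changes of -0.69 and -0.52. Of all genes 39.3% fell and 40.5% rose in NRF2 cells, and 37.4% fell and 39.1% rose in EV cells. The effect was called lower in NRF2 cells for 15 of the 48 and higher for none, also at an unadjusted p under 0.05, where 10.2% of all genes were called lower and 5.53% higher. Clspn, the adaptor through which ATR activates CHEK1, had 15.7 ± 1.497 CPM in NRF2 cells with romidepsin and 60.4 ± 6.76 CPM in NRF2 cells with DMSO, and 29.1 ± 1.64 CPM in EV cells with romidepsin and 61.2 ± 1.31 CPM in EV cells with DMSO (SD, n = 3 each). Clspn fell by 1.95 ± 0.08 (log2) in NRF2 cells and had the largest difference between the lines in this list, at -0.87 ± 0.11 (adjusted p = 5.9e-05). Usp1, which removes ubiquitin from FANCD2, fell by 1.75 ± 0.12 in NRF2 cells and by 1.24 ± 0.12 in EV cells. H2ax, the histone variant that marks breaks, fell by 1.52 ± 0.09 in EV cells. In NRF2 cells H2ax averaged 24.5 ± 1.15 CPM with romidepsin and 73.2 ± 10.7 CPM with DMSO. Mus81, the nuclease that cuts recombination intermediates, went the other way and rose by 1.25 ± 0.08 (edgeR adjusted p = 1.4e-10) in EV cells, with 44.2 ± 1.85 CPM with romidepsin and 18.5 ± 0.844 CPM with DMSO. In NRF2 cells Mus81 averaged 53.05 ± 1.555 CPM with romidepsin and 22.09 ± 3.188 CPM with DMSO. Its partner Eme1 was 1.63-fold lower in NRF2 than in EV cells under romidepsin (log2 -0.70 ± 0.07). With DMSO 3 of the 48 were lower and 4 higher in NRF2 than in EV cells, against 16.9% and 19.3% of all genes, and under romidepsin 23 were lower and 3 higher, against 22.4% and 23%.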

How the data were processed

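RNA from 12 cultures was taken with Trizol, enriched for poly-A RNA and made into TruSeq libraries, per the labels' protocols. Per the submitters' processing notes, the tools were bcl2fastq 2.19, kallisto 0.44.0 and DESeq2 (version not given), on build GRCm38. The authors deposited estimated counts per gene symbol, whole in 100% of values, which were used as they stand, and their normalized table was not used here. How kallisto's estimates were summed per gene, and whether strand was used, is not given in the sources used here.

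Genes were kept by edgeR's default filter on the 4 groups (13502 kept; of the 35013 listed, 12331 had no count). The test was the two-sided quasi-likelihood test of edgeR 4.0.16 in R 4.3.3 with a robust fit and TMM factors. A single model with a term for each group was fitted to the 12 libraries, leaving 8 residual degrees of freedom. P-values were adjusted by Benjamini-Hochberg over all genes tested and called under 0.05. A prior count of 0.125 entered the log2 fold changes, and SEs were taken from the fold change and the F statistic (|log2 change| over the root of F). Intervals are 95%, from the SE and a t distribution with 8 degrees of freedom. They can be wider than the test implies. For Nbn in the difference of effects, the interval spans no difference although edgeR's unadjusted p was 0.044. The depth of 16842824 to 28003010 estimated counts sets a floor of 3 counts at 0.105 to 0.182 CPM, which every listed gene exceeded. The script was run on simulated counts with 200 genes changed in 1 group, far fewer than were called in these data. Of 1.25-fold changes, the pairwise comparisons recovered 45.8 to 55% and the test of the difference of effects 18.1%. Of 1.5-fold changes they recovered 70.1 to 72.5% and 58.8%. False calls made up 2.8 to 6.85% of calls. These rates hold for the simulated setting and may differ in these data, where many more genes changed. Small changes can go uncalled.

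Positions, exons and overlaps came from GENCODE M21 (GRCm38) by symbol, and promoters from RefSeq (GRCm38.p6), with the motifs searched as exact words. Genes of the further lists were matched by symbol, Abraxas1 and H2ax through older names. The 31 genes, the further gene lists, the marker lists and the motifs were chosen with earlier results of these data known. A few genes of the further and marker lists are not reported here. Every one of the 31 genes may be named. From other lists up to 3 called genes above 1 CPM, those that changed most, were named per comparison, and promoters were shown for the largest falls and the largest rise among genes with an entry. Shares of all genes called are given beside the counts of repair genes, and no list was tested as a set.

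Results were recomputed with factors from RLE or the upper quartile or with none beyond library size. Further alternatives were no filter on low counts, a floor of 1 CPM in 3 libraries, limma-voom (limma 3.58.1), DESeq2 1.42.0, a model of only the groups compared, the replicate number as a blocking term, and leaving out each library in turn.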

Additional observations from a re-analysis of the deposited data

Results flagged for a closer look

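For 15 repair genes the effect of romidepsin differed between the lines by the test of the difference itself (edgeR quasi-likelihood test, Benjamini-Hochberg adjusted p under 0.05), and in each the value was lower in NRF2 cells. The difference, NRF2 minus EV on the log2 scale, was -0.75 for Bard1, -0.73 for Rad54b, -0.60 for Brip1, -0.58 for Exo1 and Fancb, -0.51 for Brca2, and -0.50 for Brca1, Fancd2 and Chek1. It was -0.48 for Rad54l, -0.45 for Palb2, -0.43 for Chek2, -0.41 for Fancm, -0.40 for Blm and -0.34 for Rbbp8. Of all genes tested, 10.2% were called lower in this way.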

How the results depend on the processing

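No called value changed sign under any alternative. Of 3224 recomputed values of single genes, 3121 kept their side of the threshold, 79 lost a call and 24 gained one. The 3121 include 52 that changed sign while uncalled in both fits. Scaling moved the medians of the romidepsin effects in each line most. In NRF2 cells the median log2 change with romidepsin was -0.80 with RLE factors and with DESeq2, -0.72 with upper-quartile and -0.69 with library-size scaling, and in EV cells -0.61, -0.61, -0.52 and -0.51. With upper-quartile and library-size scaling the median of all genes was 0.12 and 0.15 in NRF2 cells and 0.12 and 0.13 in EV cells. With each of these, 1 gene, Rad51c, was called higher in NRF2 cells, where 45% and 46.3% of all genes were. The median between the lines with DMSO was -0.09 with library-size scaling. Leaving out each library gave 5 to 11 genes lower in NRF2 than in EV cells with DMSO, with medians of -0.09 to -0.03, where 13.5 to 19.8% of all genes were lower. It gave 26 to 28 lower with romidepsin in NRF2 cells (medians -0.91 to -0.83; all genes 37.5 to 40.6%), 21 to 23 in EV cells (-0.66 to -0.61; 35.5 to 38.6%), 20 to 23 lower in NRF2 than in EV cells under romidepsin (-0.46 to -0.40; 18.2 to 28.2%) and 13 to 18 lower in the difference of effects (-0.40 to -0.33; 6.98 to 15.5%). The cause of these shifts was not tested. Replicate numbers did not pair the libraries: correlations of deviations between libraries of the same number were -0.10 to 0.06, and 3 of 12 libraries correlated best with their own number. With the replicate block 8 genes were lower in NRF2 than in EV cells with DMSO (all genes 15.8%), Rad54l being lost (edgeR adjusted p = 0.063). In that fit 27 were lower with romidepsin in NRF2 cells (all genes 38.9%) and 23 in EV cells (37.2%). Between the lines under romidepsin 22 were lower (21.5%), and 15 were lower in the difference of effects (9.04%). Depth limits Fancl most, with 34 to 49 counts a library in treated NRF2 cells.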

Other observations

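The 18 listed genes of end joining, the route that reseals breaks without a template, also moved with romidepsin: 13 fell and 3 rose in NRF2 cells, and 13 fell and 3 rose in EV cells, with median log2 changes of -0.69 and -0.42. Of all genes 39.3% fell and 40.5% rose in NRF2 cells, and 37.4% fell and 39.1% rose in EV cells. Lig3, a ligase that also serves mitochondrial DNA, had 24.3 ± 1.88 CPM in NRF2 cells with romidepsin and 87.7 ± 2.79 CPM in NRF2 cells with DMSO, and 40.0 ± 1.37 CPM in EV cells with romidepsin and 107 ± 1.44 CPM in EV cells with DMSO (SD, n = 3 each). It fell by 1.84 ± 0.06 (log2) in NRF2 cells and by 1.42 ± 0.05 in EV cells. Polq, the polymerase of microhomology-mediated joining, had 13.2 ± 0.869 CPM in NRF2 cells with romidepsin and 21.3 ± 3.23 CPM in EV cells with romidepsin, and its romidepsin effect was lower in NRF2 cells by 0.62 ± 0.13 (log2; edgeR adjusted p = 0.0034). The difference of effects was called lower for 5 of the 18 genes and higher for 1, against 10.2% and 5.53% of all genes. Between the lines, 9 were lower and 1 higher in NRF2 than in EV cells under romidepsin, against 22.4% and 23% of all genes, and 5 lower and 1 higher with DMSO, against 16.9% and 19.3%. Parp1, which senses breaks, was 1.21-fold lower in NRF2 than in EV cells with DMSO, with 180 ± 6.78 CPM in NRF2 cells and 219 ± 3.03 CPM in EV cells.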
